A study of Homo sapiens with 6 samples.

Results

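Oxidative phosphorylation is carried out by complexes I to V of the inner mitochondrial membrane, and the genes described here encode the subunits of those complexes that the nucleus supplies. They were chosen by symbol. A gene was taken if its name began with NDUFA, NDUFB, NDUFC, NDUFS, NDUFV, UQCR, COX4I, COX5, COX6, COX7, COX8 or one of the ATP synthase stems ATP5F1, ATP5MC, ATP5ME, ATP5MF, ATP5MG, ATP5PB, ATP5PD, ATP5PF and ATP5PO, or was one of SDHA to SDHD, and pseudogenes were left out. The rule found 81 genes, read by 114 probes, among the 18852 genes with a named probe on the array. No measured value entered the rule apart from the choice of the brightest probe for each gene.

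The cells were HEK293, an established human embryonic kidney line. One group grew for 3 days in medium to which all-trans retinoic acid (tRA) and a membrane-permeable cyclic AMP, its N6,2'-O-dibutyryl form, had been added (tRA/cAMP, n = 3). The other grew for the same time in complete medium alone (CNTRL, n = 3). Both agents were given together, so their separate effects cannot be told apart, and no other allele or agent is named for either group. The comparison asks which transcripts the differentiating agents moved, and here how far they moved the respiratory chain. RNA was pooled over all cells of a sample, so fewer cells of one kind and less RNA per cell cannot be told apart.

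Complex I (NADH dehydrogenase) and complex II (succinate dehydrogenase) pass electrons from metabolism to ubiquinone, complex III passes them on to cytochrome c, and complex IV (cytochrome c oxidase) hands them to oxygen. Complexes I, III and IV pump protons across the inner membrane, and complex V (ATP synthase) makes ATP as the protons return. Most subunits are made from nuclear genes and imported, and some core subunits are made from mitochondrial DNA. In several other tissues cyclic AMP raises respiratory genes through the coactivator PPARGC1A.

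The 6 arrays detected between 14792 and 16103 probes each (30.3% to 33% of 48803), and log2 values correlated at 0.9859 to 0.9901 within groups and at 0.9768 to 0.9811 between them. All were hybridised on 1 chip, where CNTRL samples held the first positions and tRA/cAMP samples the remaining ones. Chip position and treatment thus cannot be told apart. The treated cells had responded. CYP26A1, which degrades retinoic acid and is a textbook target of it, read 14.00, 13.82 and 13.92 in the tRA/cAMP arrays, against 8.45, 8.13 and 8.16 in the CNTRL arrays (normalized log2 intensity), 50.7-fold higher with an adjusted p of 5.6e-09. RARB, a retinoic acid receptor gene, was 3.89-fold higher (adjusted p = 5.8e-05), and NR4A2, a nuclear receptor gene induced by cyclic AMP, was 2.32-fold higher (adjusted p = 0.00057). Of the HEK293 identity genes, KRT8, KRT18, VIM, NEFL, LHX1, WT1, EYA1 and GATA3 were detected on all 6 arrays, whereas the probes for PAX2, NEFM and INA were not detected. The leukocyte genes PTPRC and CD3E and the endothelial gene CDH5 were detected on 0 arrays, PECAM1 on 2 treated and 1 CNTRL array, and CD14 on 3 treated and 2 CNTRL arrays. Of these markers EYA1 was lower in treated cells (log2 difference -1.05, adjusted p = 0.0086) and GATA3 higher (0.94, adjusted p = 0.0157).

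None of the oxidative phosphorylation genes passed the test. A gene was tested where every array of 1 or both groups gave its probe a detection p under 0.01, which 72 of the 81 members did, all 72 of them on all 6 arrays. At an adjusted p under 0.05 (limma, Benjamini-Hochberg over 9942 genes), 0 of the 72 were called, against 2.53% of all genes tested, 1.09% higher and 1.45% lower. At an unadjusted p under 0.05, 1 member passed (NDUFC2), where 14.2% of all genes did (6.86% higher and 7.36% lower). The smallest adjusted p of a member was 0.2295.

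The fitted differences of the members lay close to 0. Their median was 0.03 on the log2 scale, against 0.0017 for all genes tested, with quartiles of -0.07 and 0.11 and a range of -0.22 to 0.45. Differences were above 0 for 43 members and below 0 for 29, and above 0 for 50.4% of all genes tested. The median turned to -0.06 without normalization between arrays, a setting in which the median of all genes was -0.10, so the side of 0 on which the members lay depended on the scaling. The standard deviation of the differences was 0.1308 over the members and 0.2854 over all genes tested.

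**Figure D1:**
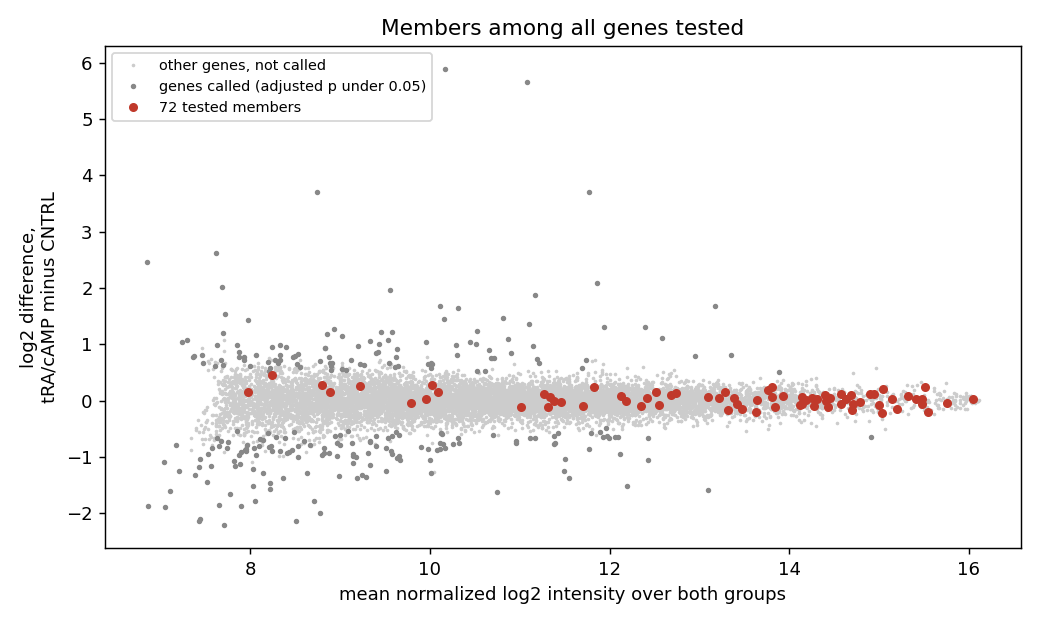
Fitted log2 difference (tRA/cAMP minus CNTRL, y axis) against mean normalized log2 intensity over both groups (x axis), for the 72 tested members among all 9942 genes tested. The members lie between -0.22 and 0.45, around a median of 0.03.

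How large a difference between the groups the 3 arrays per group leave room for can be read from the intervals. These cover only the spread of the arrays within groups, which may be technical. The 95% interval of the difference lay wholly within 1.5-fold in either direction for 70 of the 72 members (97.2%), and for 75.5% of all genes tested. Brightness moved with this share. Mean intensity was at least 10000 for 45 of the members, all 45 of which had such an interval, as did 94.4% of all genes of that brightness. Among the 27 dimmer members the share was 92.6%, against 73.5% of all dimmer genes. The interval that reached furthest down was that of UQCRC2, to 1.43-fold lower, and the one that reached furthest up was that of NDUFC2, to 1.76-fold higher. The intervals of NDUFC2 and NDUFAF6 were the 2 that went beyond 1.5-fold.

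**Figure D2:**
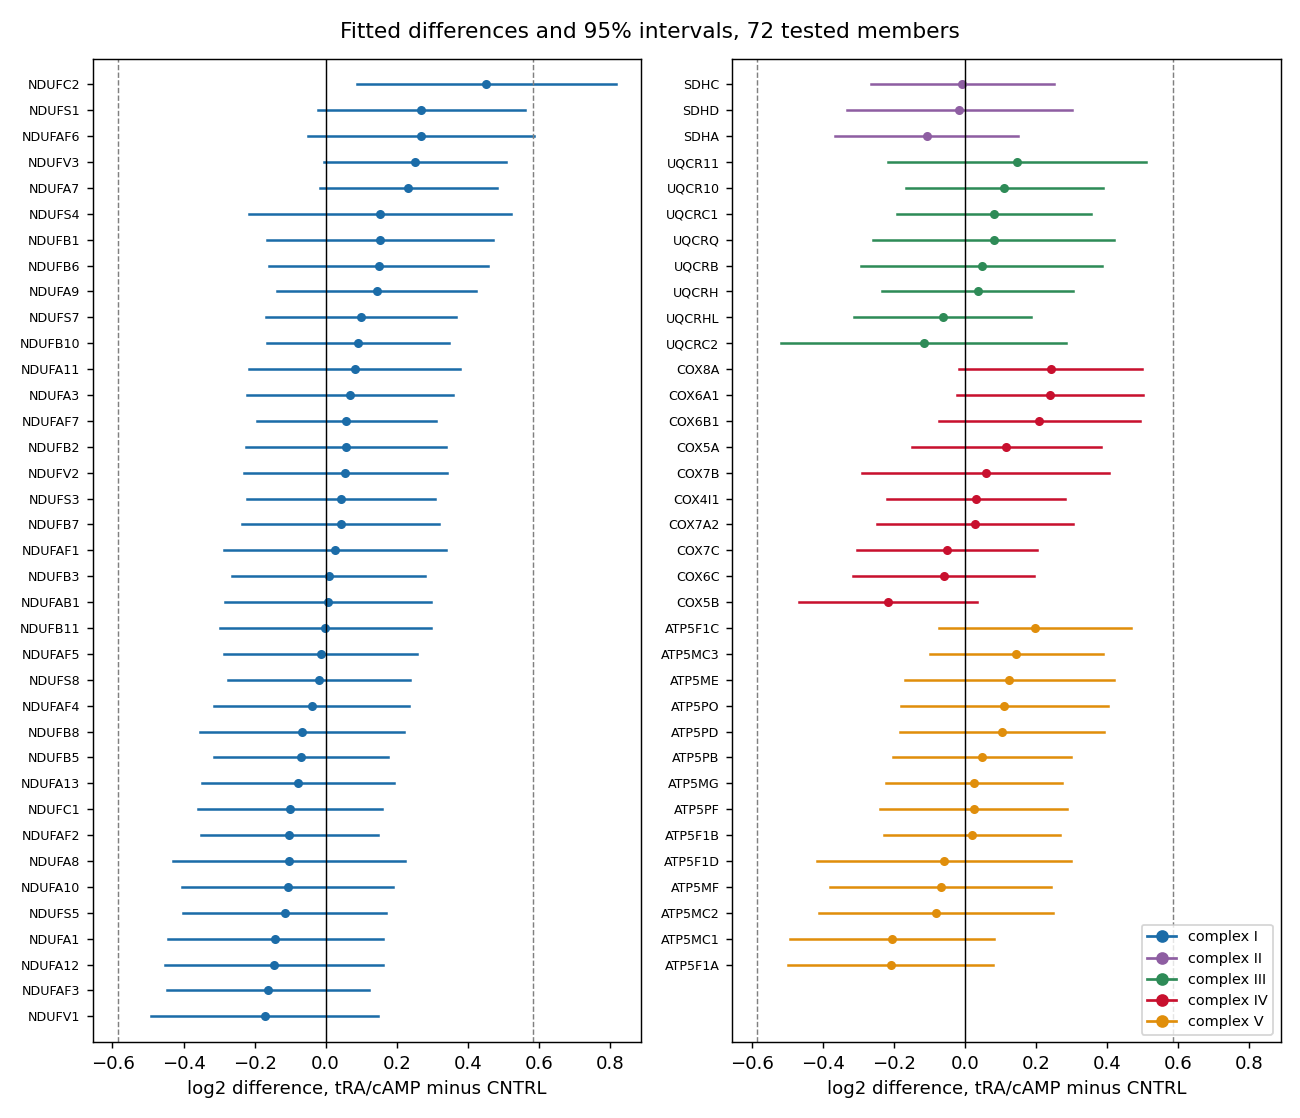
Fitted log2 difference (point) and 95% interval (line) of each of the 72 tested members, tRA/cAMP minus CNTRL, coloured by complex, with dashed lines at 1.5-fold lower and higher. The interval of NDUFC2 lies wholly above 0, and those of NDUFC2 and NDUFAF6 pass the upper dashed line.

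Separation of the groups gave the same picture. For 9 members (12.5%) the tRA/cAMP and CNTRL values did not overlap, 6 with the treated arrays higher and 3 with them lower, where this held for 18.9% of all genes tested (9.2% higher and 9.71% lower). The 6 were NDUFS1, NDUFV3, NDUFA7, COX8A, COX6A1 and ATP5MC3, and the 3 were COX5B, NDUFAF2 and NDUFB5. The members' share lay below that of all genes tested, and none of the 9 passed the adjusted threshold.

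Complex I was represented by 40 genes, its assembly factors included, of which 37 were tested. Differences were above 0 for 21 and below 0 for 16, with a median of 0.03. Its N module, the tip of the matrix arm that oxidises NADH, held 7 tested genes, with a median of 0.15, 5 above 0 and 2 below. NDUFS1, the large iron-sulfur subunit of this module, read 8.93, 8.92 and 8.94 in the tRA/cAMP arrays, against 8.56, 8.89 and 8.52 in the CNTRL arrays. The treated values lay close together and all above the CNTRL values, of which the second lay just under them. The fitted difference was 0.27 (95% interval -0.02 to 0.56, adjusted p = 0.395 by limma). The probe was dim, with a mean intensity of 647.6, and the difference was 0.18 with no background correction. NDUFV3, a small accessory subunit, read 9.27, 9.45 and 9.32 with tRA/cAMP, against 9.14, 9.03 and 9.12 in CNTRL cells, a difference of 0.25 (-0.005 to 0.51, adjusted p = 0.364). This difference was 0.19 with no background correction. NDUFA7, another accessory subunit of the N module, read 11.92, 11.90 and 12.01 with tRA/cAMP, against 11.66, 11.75 and 11.72 in CNTRL cells, a difference of 0.23 (-0.02 to 0.48, adjusted p = 0.390). In both genes every treated array was above every CNTRL array.

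Another core subunit of the N module lay on the other side of 0. NDUFV1, the flavoprotein at which NADH is oxidised, read 13.02, 13.25 and 13.42 in the tRA/cAMP arrays, against 13.22, 13.44 and 13.54 in the CNTRL arrays. The groups overlapped, and the difference was -0.17 (-0.49 to 0.15, adjusted p = 0.666). NDUFV2, its partner in the flavoprotein part, had a difference of 0.06, NDUFS4 one of 0.15 and NDUFA12 one of -0.15. The 3 N module genes whose groups separated therefore stood beside 4 whose groups overlapped. That share, 42.9%, rests on only 7 genes, and the share over all genes tested was 18.9%.

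The Q module, where ubiquinone is reduced, held 4 tested genes with a median of 0.07. NDUFS7, which carries the iron-sulfur cluster next to the quinone site, read 12.61, 12.82 and 12.76 with tRA/cAMP, against 12.55, 12.74 and 12.60 in CNTRL cells, a difference of 0.10 (-0.17 to 0.37, adjusted p = 0.783). NDUFA9, NDUFS3 and NDUFS8 had differences of 0.14, 0.04 and -0.02. In all 4 genes the groups overlapped.

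The membrane arm, the proton-pumping part whose core subunits are mitochondrially encoded, held 19 tested accessory genes. Of these 10 were above 0 and 9 below, with a median of 0.01. NDUFC2 had the highest difference of all members. It read 8.14, 8.46 and 8.79 in the tRA/cAMP arrays, against 7.95, 8.15 and 7.93 in the CNTRL arrays. The treated arrays were spread widely (mean 8.46 ± 0.32, against 8.01 ± 0.12 in CNTRL cells, SD, n = 3 each), and the lowest treated value lay just under the highest CNTRL value. The difference of 0.45, or 1.37-fold, had an interval of 0.09 to 0.82 and an unadjusted p of 0.02 by limma, which adjustment over all genes took to 0.2295. The size of the difference depended on single arrays and on the background correction. It was 0.29 without the third treated array and 0.61 without the first, and 0.28 with no background correction as well as in the deposited normalized table, uncalled each time. A read-through gene shares sequence with NDUFC2, and its part in the signal was not tested. NDUFA1, a small subunit at the foot of the arm, read 15.12, 15.16 and 15.11 with tRA/cAMP, against 15.50, 15.04 and 15.27 in CNTRL cells, a difference of -0.14 (-0.44 to 0.16). NDUFAB1, the mitochondrial acyl carrier protein, had a difference of 0.01. NDUFB5 separated, with 14.12, 14.04 and 14.10 in treated arrays, against 14.20, 14.14 and 14.13 in CNTRL arrays, but by a difference of only -0.07.

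The symbol rule also takes in 7 NDUFAF genes, which encode factors that assemble complex I and are no part of the finished enzyme. Their differences were above 0 for 3 and below 0 for 4, with a median of -0.01. NDUFAF6 read 9.92, 10.39 and 10.15 in the tRA/cAMP arrays, against 10.02, 9.81 and 9.82 in the CNTRL arrays, a difference of 0.27 (-0.05 to 0.59, adjusted p = 0.448). NDUFAF3 read 14.59, 14.54 and 14.73 with tRA/cAMP, against 14.60, 14.84 and 14.91 in CNTRL cells, a difference of -0.16 (-0.45 to 0.12, adjusted p = 0.640). Groups overlapped in both. Without these 7 genes, 65 members were tested and their median was 0.04.

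**Figure D3:**
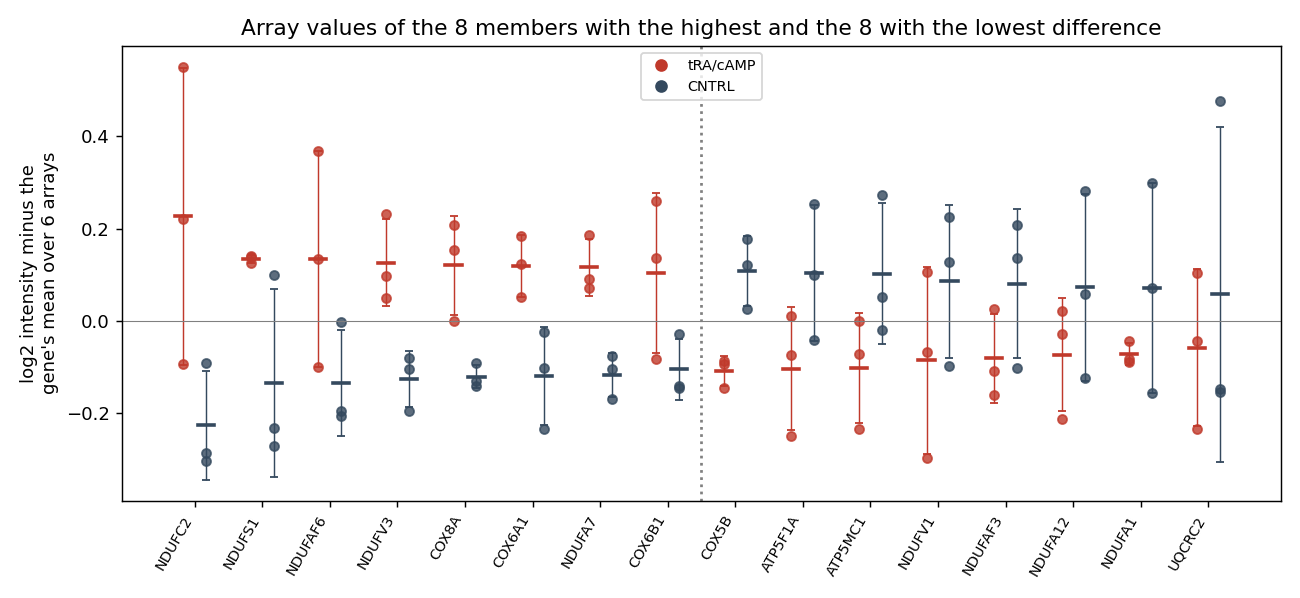
Array values of the 8 members with the highest (left of the dotted line) and the 8 with the lowest fitted difference, as log2 intensity minus the gene's mean over the 6 arrays (y axis), with the group mean (bar) and SD (line), n = 3 each. The tRA/cAMP points lie wholly above the CNTRL points for 5 of the 8 on the left, and wholly below them for COX5B on the right.

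Complex II is made wholly from nuclear genes, and 3 of its 4 subunit genes were tested. SDHA, the flavoprotein that oxidises succinate, read 13.91, 13.78 and 13.68 in the tRA/cAMP arrays, against 13.88, 13.89 and 13.93 in the CNTRL arrays. The first treated array fell among the closely spaced CNTRL values, and the other two lay below them. The difference was -0.11 (-0.37 to 0.15, adjusted p = 0.762). The membrane anchors SDHC and SDHD had differences of -0.008 and -0.016.

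Complex III gave 8 tested genes, 6 above 0 and 2 below, with a median of 0.06, and in none of them were the groups separate. UQCRC1, a core protein of the matrix side, read 12.07, 12.22 and 12.22 with tRA/cAMP, against 12.19, 11.93 and 12.14 in CNTRL cells, a difference of 0.08 (-0.19 to 0.36, adjusted p = 0.836). UQCRC2, its partner, read 11.42, 11.08 and 11.27 with tRA/cAMP, against 11.79, 11.16 and 11.16 in CNTRL cells, a difference of -0.12 (-0.52 to 0.29, adjusted p = 0.843). The first CNTRL array stood above the rest for UQCRC2, and without it the difference was 0.09. UQCRH, the hinge protein that binds cytochrome c1, and its near-identical copy UQCRHL had differences of 0.04 and -0.06, and their probes may share signal.

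Complex IV has tissue or condition forms for several subunits, and the array held both kinds. The 10 general forms were all tested, 7 above 0 and 3 below, with a median of 0.05. COX8A read 15.67, 15.72 and 15.52 in the tRA/cAMP arrays, against 15.42, 15.38 and 15.39 in the CNTRL arrays, a difference of 0.24 (-0.02 to 0.50, adjusted p = 0.388). COX6A1 read 13.93, 13.86 and 13.99 with tRA/cAMP, against 13.70, 13.57 and 13.78 in CNTRL cells, a difference of 0.24 (-0.02 to 0.50, adjusted p = 0.399). Treated arrays were above all CNTRL arrays for both of these small nuclear subunits. COX5B, the zinc-binding subunit, was the member with the lowest difference and ran the opposite way. It read 14.89, 14.95 and 14.94 with tRA/cAMP, against 15.06, 15.21 and 15.15 in CNTRL cells, a difference of -0.22 (-0.47 to 0.03, adjusted p = 0.433), with every treated array lower.

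Other complex IV subunits lay nearer to 0 or varied more. COX6B1, which lies where cytochrome c docks, read 14.96, 15.30 and 15.18 in the tRA/cAMP arrays, against 15.01, 14.90 and 14.90 in the CNTRL arrays. The first treated array fell among the CNTRL values, and the difference was 0.21 (-0.07 to 0.49, adjusted p = 0.520). COX4I1, the largest of the nuclear subunits, read 15.23, 15.07 and 15.17 with tRA/cAMP, against 15.14, 15.14 and 15.09 in CNTRL cells, a difference of 0.03 (-0.22 to 0.28) that changed sign under other scalings. COX5A, COX7B and COX7A2 had differences of 0.12, 0.06 and 0.03, all 3 of which were below 0 without normalization between arrays. In that setting they were at -0.01, -0.03 and -0.07, and the median of all genes tested was -0.10.

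The 6 tissue or condition forms were not detected on any array. These were COX4I2 (lung and low oxygen), COX6A2 and COX7A1 (heart and skeletal muscle), COX6B2 and COX8C (testis) and COX7B2. Their intensities ran from 184.4 to 264.6 on the tRA/cAMP arrays, against 160.2 to 263.5 on the CNTRL arrays, a range that takes in the median intensity of most arrays. No switch to these forms was therefore seen, within what the probes can detect. That limit matters, since the probes for NDUFA5 and NDUFS6, which belong to every complex I, were also at background (230.8 to 311.8 with tRA/cAMP, against 195.6 to 269.6 in CNTRL cells). NDUFB4 was detected on 2 arrays of each group and was not tested.

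Complex V gave 14 tested genes, 9 above 0 and 5 below, with a median of 0.03. ATP5F1B, the catalytic beta subunit of the F1 head, read 16.02, 16.10 and 16.05 in the tRA/cAMP arrays, against 15.99, 16.01 and 16.10 in the CNTRL arrays. Both groups lay within the same narrow band, and the difference was 0.02 (-0.23 to 0.27, adjusted p = 0.959). ATP5F1A, the alpha subunit, read 15.30, 15.56 and 15.47 with tRA/cAMP, against 15.80, 15.51 and 15.65 in CNTRL cells, a difference of -0.21 (-0.50 to 0.08, adjusted p = 0.533). ATP5F1C, the gamma subunit that turns inside the head, had a difference of 0.20.

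The c ring, the rotor in the membrane, is built from 1 mature protein that 3 genes encode, and on the probes used the 3 did not run one way. ATP5MC3 read 10.13, 10.17 and 10.20 in the tRA/cAMP arrays, against 10.02, 10.05 and 9.99 in the CNTRL arrays, a difference of 0.14 (-0.10 to 0.39, adjusted p = 0.622), with every treated array higher. ATP5MC1 read 13.56, 13.39 and 13.63 with tRA/cAMP, against 13.90, 13.68 and 13.61 in CNTRL cells, a difference of -0.20 (-0.49 to 0.08, adjusted p = 0.538), with groups that overlapped. ATP5MC2 had a difference of -0.08 on the probe used. The other tested probes of ATP5MC1 and ATP5MC2 gave 0.08 and 0.13, so the signs of both genes were not settled. Among the 7 genes of the peripheral stalk and membrane part, such as ATP5PO, which joins the stalk to the head, 6 differences were above 0, up to 0.13.

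The promoters of the members were searched for the DNA elements through which the treatment, or the known regulators of respiratory genes, could act. A window from 250 bases before to 50 after the start was given for 67 of the 81 members (RefSeq, GRCh38.p14), and each motif was searched on both strands. The cyclic AMP response element TGACGTCA was in 4 of the 67 windows (5.97%), against 3.61% of the windows of genes tested and 1.98% of all 27305 genes with such a window. These 4 stretches are shown because cyclic AMP acts on transcription through factors that bind this element. The element is in capitals, each stretch reads in the direction of its gene, and the element begins 57, 158, 48 and 53 bases before the start.
ATP5MC1, chr17:48892710-48892757, + strand: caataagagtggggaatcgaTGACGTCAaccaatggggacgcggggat
ATP5ME, chr4:674407-674454, - strand: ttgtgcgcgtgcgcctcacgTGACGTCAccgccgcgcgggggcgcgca
NDUFA10, chr2:240025363-240025410, - strand: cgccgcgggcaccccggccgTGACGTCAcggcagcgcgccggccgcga
NDUFB2, chr7:140696635-140696682, + strand: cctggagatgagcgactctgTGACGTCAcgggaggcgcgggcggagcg

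The fitted differences of these 4 genes were -0.20, 0.13, -0.11 and 0.06 in that order, on both sides of 0 and none of them called. Their median was -0.02, against 0.04 for the 56 tested members whose window lacked the element. The direct repeat to which retinoic acid receptors bind was searched only as 2 exact half-sites AGGTCA. With 5 free bases between them it was in 0 of the 67 windows, in 0 of the 8232 windows of genes tested and in 0.00366% of all windows. With 2 free bases it was in none of the windows searched. Variants of the half-site were not searched. A match this rare among all genes cannot tell whether the members differ from other genes.

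The element of NRF1, nuclear respiratory factor 1, was the most frequent. The letters GCGCA and GCGC with 1 free base between them were in 16 of the 67 windows (23.9%), against 12.7% of the windows of genes tested and 6.28% of all genes. The ETS element CCGGAAGT, which GABPA binds, was in 9 (13.4%, against 9.33% and 4.44%), and the YY1 element AAGATGGCG in 6 (8.96%, against 4.23% and 1.85%). SDHA had 4 NRF1 matches in the one window. Of these the second is shown, beside 1 match each from complexes III and V, with the motif in capitals. The UQCRC1 match lies on the strand opposite to the gene, so its capitals are the reverse complement of the motif.
SDHA, chr5:218183-218232, + strand: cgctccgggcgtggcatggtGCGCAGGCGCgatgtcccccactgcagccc
UQCRC1, chr3:48609664-48609713, - strand: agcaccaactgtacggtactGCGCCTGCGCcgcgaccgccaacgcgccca
ATP5F1C, chr10:7788135-7788176, + strand: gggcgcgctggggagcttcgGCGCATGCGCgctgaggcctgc

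The 14 tested members with an NRF1 match had a median difference of 0.08, against 0.03 for the 46 without one. For the ETS element the medians were 0.08 in the 9 with a match and 0.03 in the 51 without. For the YY1 element they were 0.12 in 6 and 0.03 in 54. A match of letters does not show that a factor binds there.

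For 21 members more than 1 probe was tested, which allowed a second reading of the same gene. The 24 other probes had a median difference of 0.02 and a range of -0.25 (NDUFAF7) to 0.47 (UQCR10), with 13 above 0. All probes of a gene had the same sign in 11 genes and mixed signs in 10. The absolute gap between the probe used and another of the same gene had a median of 0.14 and reached 0.36. One of the other probes had an unadjusted p under 0.05. This probe for UQCR10, a small subunit of complex III, read 10.69, 10.98 and 10.67 in the tRA/cAMP arrays, against 10.32, 10.11 and 10.49 in the CNTRL arrays, with every treated array higher and an adjusted p of 0.1561 over the 12887 probes tested. The probe used for that gene gave 0.11. SDHA gave -0.11 on the probe used and 0.14 on its other probe, so its sign was not settled.

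**Figure D4:**
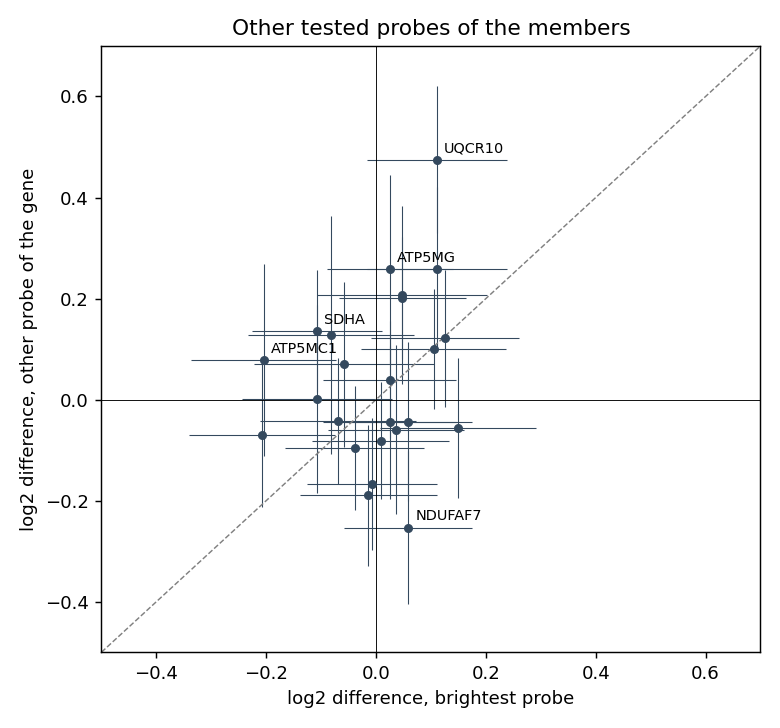
Log2 difference (tRA/cAMP minus CNTRL) of the probe used and of the other tested probes for the 21 members with several. Signs agree within 11 genes and are mixed in 10, and the highest other probe, at 0.47, belongs to UQCR10.

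Small offsets of single arrays ran through the members. The median deviation of the 72 members from their own mean was -0.04, 0.01 and 0.07 in the 3 tRA/cAMP arrays, against 0.03, -0.05 and -0.02 in the CNTRL arrays. Over all genes tested the medians lay between -0.0024 and 0.0057. The third treated array was the highest of its group for 33 members (45.8%, against 35.4% of all genes), and the first was the lowest for 36 (50%, against 33.1%). The first CNTRL array was the highest of its group for 37 members (51.4%, against 33.5%). The spread of the array medians within a group was thus at least as large as the members' median difference of 0.03.

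**Figure D5:**
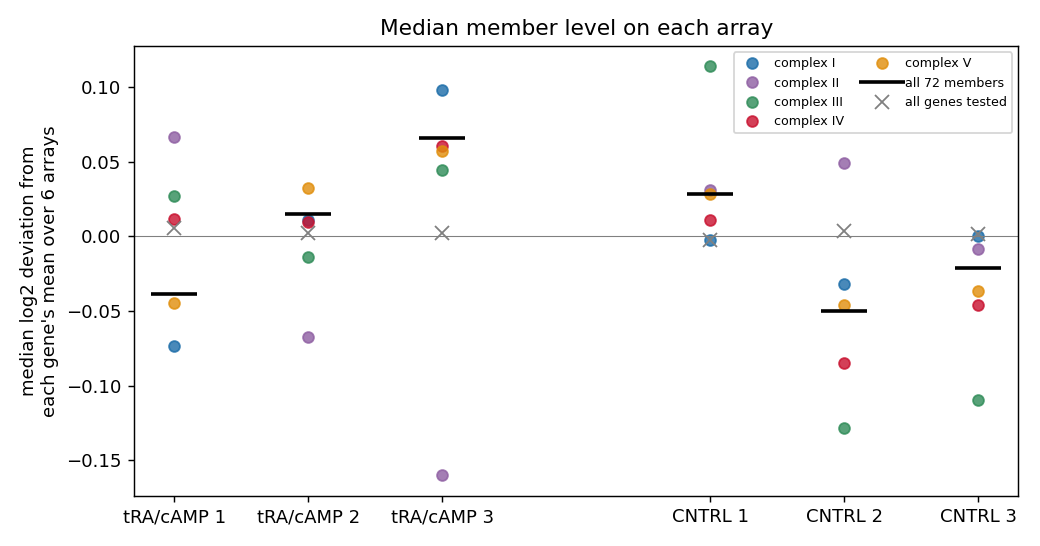
Median deviation of the members of each complex, and of all 72 members, from the gene means in each of the 6 arrays (log2, y axis), tRA/cAMP arrays first. The third tRA/cAMP array is highest for all members together at 0.07, and the second CNTRL array lowest at -0.05.

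Genes that work with the complexes were compared from lists of their own. In each of them limma called 0 genes, where it called 2.53% of all genes tested. At an unadjusted p under 0.05, 2 assembly factors passed with the treated arrays higher. With the treated arrays lower, 1 regulator, 1 gene of the tricarboxylic acid cycle and 1 of protein import passed. These were 5.13%, 6.25%, 5.88% and 5.56% of the tested genes of their lists, below the 14.2% of all genes tested. Of 6 tested subunits outside the symbol rule and cytochrome c genes, 4 were above 0 and 2 below. COXFA4, long listed as NDUFA4 and now counted to complex IV, had a difference of 0.24 with every treated array higher, and CYC1, the cytochrome c1 of complex III, one of -0.14 with every treated array lower. Of 39 tested assembly factors of the 5 complexes, 22 were above 0 and 17 below. COX11, which delivers copper to complex IV, read 9.58, 9.64 and 9.76 in the tRA/cAMP arrays, against 9.26, 9.22 and 8.94 in the CNTRL arrays. Every treated array was higher, and the difference of 0.52 (0.23 to 0.81) had an adjusted p of 0.0712. ECSIT, an assembly factor of complex I, had a difference of 0.62 (0.16 to 1.07, adjusted p = 0.1815) with groups that overlapped. None of the 26 mitochondrially encoded genes listed had a named probe here, so the core subunits made inside the organelle were not analysed.

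Among the regulators, the probes read for PPARGC1A and NRF1 were not detected on any array. The probes for NDUFA5 and NDUFS6 were also at background, so such a reading does not show that a gene was silent. PPARGC1B, a coactivator related to PPARGC1A, read 7.92, 8.04 and 7.19 in the tRA/cAMP arrays, against 8.33, 8.54 and 8.96 in the CNTRL arrays. Every treated array was lower, 2 of the 3 treated and all 3 CNTRL arrays detected the probe, and the difference of -0.90 (-1.40 to -0.39) had an adjusted p of 0.0768. TFAM, which packages and transcribes mitochondrial DNA, had a difference of 0.23 (adjusted p = 0.448), GABPA one of 0.23 (adjusted p = 0.505) and ESRRA, an orphan receptor that works with these coactivators, one of -0.13 (adjusted p = 0.764). Over the 16 regulators tested 7 were above 0 and 9 below. In the tricarboxylic acid cycle list 7 of 17 tested genes were above 0, and PDHA1, the pyruvate dehydrogenase subunit through which pyruvate enters the cycle, had a difference of -0.43 (adjusted p = 0.0922) with every treated array lower. In the lists of mitochondrial carriers and of protein import, 1 of 6 and 7 of 18 tested genes were above 0. TIMM8B, a small chaperone of the import pathway, had a difference of -0.37 (adjusted p = 0.2303) with every treated array lower.

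Several subunits could not be described. The genes NDUFA2, NDUFA6, NDUFB9, SDHB, UQCRFS1, ATP5F1E and COX7A2L were among 12 that meet the symbol rule in RefSeq and were not analysed here. The probe read for the pseudogene ATP5F1EP2 had a difference of 0.03 (-0.24 to 0.29), and that for UQCRBP1 had 0.06 (-0.31 to 0.42).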

How the data were processed

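RNA from 3 tRA/cAMP and 3 CNTRL samples was labelled with biotin and hybridised to Illumina bead arrays. The deposited table gives, per the file headers, an average signal intensity and a detection p-value for each probe and array, not normalized, and BeadStudio is named in the submitters' processing notes. From these, background was corrected with limma's normexp method (offset 16), in which the negative controls' mean and spread are worked out from detection p-values, and arrays were quantile normalized to log2 values. Intensities have no read depth, and the number of arrays limits the precision.

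The platform annotation gives a single gene for 28098 of the 48803 probes, several for 13, and does not list 20692. Each gene was read by its brightest probe. The groups were compared with lmFit and eBayes (limma 3.58.1, R 4.3.3) and p-values adjusted by Benjamini-Hochberg. The limma procedure was tested on simulated data. The deposited normalized intensities of the same arrays, taken to log2, served as an alternative. The labels do not say whether the samples of a group were independent cultures, and the p-values then cover only their own spread, which may be technical. Deviations from the group means correlated at -0.05 to 0.06 between samples with the same replicate number (3 pairs). Between samples with different numbers they correlated at -0.07 to 0.10. Whether the samples were set up in pairs cannot be told from these values.

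The members and gene lists were chosen with earlier results of these data known. Named were the 8 members with the highest and the 8 with the lowest difference, the core subunits, the isoform sets, 5 regulators and 3 response genes. Other genes named (NDUFB5, NDUFAF2, UQCR10, COX11, ECSIT, TIMM8B, PPARGC1B, PDHA1, EYA1, GATA3, COXFA4, CYC1 and single subunits given for their role or promoter) were chosen after their values were seen.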

Additional observations from a re-analysis of the deposited data

How the results depend on the processing

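In 17 alternative settings, 0 of the 72 to 81 tested members were called. All of these alternatives were fixed with earlier results of these data known. Of 442 values of the 26 named members, 424 kept their sign and stayed uncalled, and 18 changed sign, none of them called. The smallest adjusted p was 0.109 (NDUFC2, without tRA/cAMP replicate 1). The count of all genes called, 252, moved to 163 (43 higher and 120 lower, against 108 and 144) without normalization between arrays, to 130 with no filter on dim probes, and to 166 with detection required on all 6 arrays. Leaving out 1 replicate gave 138 to 194 genes, with 138 without CNTRL 1, 151 without CNTRL 2 and 144 without tRA/cAMP 2. With the replicate block 192 genes were called, and 0 members. The members' median difference was -0.0636 without normalization, where the median of all genes was -0.10, and 0.0044 to 0.0664 with 1 replicate left out. Without normalization ATP5F1B was at -0.0002, COX4I1 at -0.0944, COX5A at -0.0104, COX7A2 at -0.0687, COX7B at -0.0294 and UQCRC1 at -0.0141. Cyclic loess gave COX4I1 -0.0201, and the mean of the tested probes gave ATP5MC2 0.0233 and SDHA 0.0143. With 1 replicate left out ATP5F1B ran from -0.0015 to 0.0571, ATP5MC2 from -0.1621 to 0.0579, COX4I1 from -0.006 to 0.0722, COX7A2 from -0.0387 to 0.0981, COX7B from -0.0424 to 0.2299 and UQCRC2 from -0.2225 to 0.0929. The causes of these moves were not tested.

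The median standard error of a member's difference was 0.1267. The brightest member probe, that of ATP5F1B, averaged 67958.5 over the 6 arrays, near the highest signal on any array (71374.2 to 73239), and whether such probes understate a change was not tested. Every value is relative to the other genes of its array, so a change shared by all transcripts would not show.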
